A study of Mus musculus with 2 samples.

Results

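The genes described here encode proteins of the mouse splicing machinery: the SR proteins, the hnRNP proteins, and core proteins of the spliceosome. Members were chosen by gene symbol (Srsf followed by a number, Hnrnp, Snrp followed by a letter from a to g or a number, Sf3a or Sf3b followed by a number, and U2af), leaving out pseudogene symbols, and had to hold at least 1 transcript annotated as protein_coding. The rule gave 54 of the 55450 annotated genes listed in both the gene and the transcript tables, among 21901 genes with a protein_coding transcript: 11 SR genes, 20 hnRNP genes, 11 Sm and snRNP genes, 9 SF3 genes and 3 U2AF genes. The symbol of 1 further gene matched, but that gene has no protein_coding transcript. The 54 genes hold 425 of the 141767 annotated transcripts, of which 191 are protein_coding, 130 retained_intron, 52 nonsense_mediated_decay and 52 processed_transcript.

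Total RNA was sequenced from hippocampus tissue of male B6CASTF1/J mice aged 25 days, first-generation hybrids of the C57BL/6J and CAST/EiJ strains that carried no engineered allele or treatment in the labels. There was 1 group with 2 replicates, with 300 ng of input RNA per library and ERCC spike-in RNAs added. The labels give the replicates separate biosamples but a single donor, so whether they were separate animals is not known, and their spread may be only technical. Replicate 1 had 30617252 and replicate 2 had 35697450 expected counts on annotated genes, and the design holds no second condition, so levels, transcript makeup and the difference between the replicates are described without a test. All 7 hippocampal neuron markers were at or above 1 TPM, from 25.0 TPM for Grik4 to 664 TPM for Slc17a7, and 0 of 4 markers of other brain regions reached 1 TPM, with a summed level of 0.44 TPM in replicate 1 and 0.27 TPM in replicate 2.

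SR proteins bind exonic enhancers and recruit the splicing machinery through domains rich in arginine and serine, whereas hnRNP proteins coat nascent RNA and often oppose the use of nearby splice sites. The Sm proteins form the ring at the heart of the spliceosomal snRNPs, U2AF recognises the 3′ splice site, and the SF3A and SF3B complexes anchor the U2 snRNP at the branch point. Many genes of these families are known to control their own amount by splicing in a poison exon, which carries an in-frame stop codon and sends the transcript to nonsense-mediated decay (NMD), or by holding back an intron, so that part of the RNA of such a gene does not encode the full protein.

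All 54 genes were detected at a mean of 1 TPM or more (a transcript abundance corrected for length and scaled to the same total in each library), a level reached by 59.1% of all genes with a protein_coding transcript. A mean of 10 TPM was reached by 52 of the 54, against a background of 36.9%, and a mean of 100 TPM by 9 of the 54, against a background of 3.99%. The median level was 45.0 TPM over the 54 genes and 15.01 TPM over the 12893 other genes at 1 TPM or more. In summed TPM the 54 genes made up 0.343% of replicate 1 and 0.321% of replicate 2. The hnRNP genes had the highest median, 72.9 TPM, followed by U2AF genes at 54.9 TPM, SR genes at 46.1 TPM, SF3 genes at 28.5 TPM, and Sm and snRNP genes at 28.5 TPM. In the kallisto tables the first place turned, with U2AF genes at 115.0 TPM and hnRNP genes at 110.7 TPM. The SF3 and the Sm and snRNP medians differed by less than the spread between the replicates (SD 1.23 TPM for SF3 and 1.28 TPM for Sm and snRNP genes, n = 2). In tissue RNA, a lower level can come from fewer cells that express a gene or from less RNA per cell, and these cannot be told apart here.

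Among SR genes, Srsf5 was highest, with 160 TPM in replicate 1 and 119 TPM in replicate 2. Srsf1, the founding SR protein, had 94.2 and 86.1 TPM, and Srsf11, a factor known to promote the inclusion of neuronal microexons, had 78.2 and 62.0 TPM. Srsf5 thus lay above every other SR gene in both libraries, whereas Srsf1 and Srsf11 were nearer to each other than to Srsf5. Srsf12 was the lowest, at 13.6 and 11.7 TPM. The other 7 SR genes had means from 29.5 TPM (Srsf4) to 68.7 TPM (Srsf2).

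Of the 9 genes above 100 TPM, 8 were hnRNP genes. Hnrnpk, whose protein binds C-rich RNA through KH domains, was the highest of all members, with 281 TPM in replicate 1 and 264 TPM in replicate 2. Hnrnpa2b1 followed with 225 and 198 TPM, and Hnrnpl, which binds CA repeats, had 171 and 175 TPM. The replicate ranges of these 3 genes did not overlap with each other. Hnrnph3 was the lowest hnRNP gene, at 22.9 and 16.3 TPM. Its 2 RSEM TPM values differed by more than those of any other hnRNP gene relative to their mean. In scaled counts, the log2 ratios of replicate 2 over replicate 1 were lower for Hnrnpr, at -0.25, and Hnrnpm, at -0.22, than for Hnrnph3.

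The Sm and snRNP genes spanned a narrower range at the top. Snrpb, encoding a protein of the Sm ring, had 43.0 TPM in replicate 1 and 42.3 TPM in replicate 2. Snrpa, encoding the A protein of the U1 snRNP, had 38.0 and 40.8 TPM, and Snrpd2, another Sm ring gene, had 30.9 and 35.7 TPM. Snrpb was above Snrpa, and Snrpa above Snrpd2, in both libraries of the RSEM tables. The top places depended on the quantification: Snrpe, at 2.52 times its RSEM level in the kallisto tables, was above Snrpb there in both libraries. Snrpf was the lowest at 5.35 and 5.65 TPM, from a mean of 95.1 expected counts. The levels of the 7 Sm ring genes among the members (Snrpb, Snrpd1, Snrpd2, Snrpd3, Snrpe, Snrpf and Snrpg) ran from 5.50 to 42.6 TPM.

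Sf3b2 led the SF3 genes with 85.6 TPM in replicate 1 and 91.6 TPM in replicate 2. Sf3b1, whose protein clasps the branch-point helix, had 72.6 and 61.2 TPM, and Sf3b6, encoding the small subunit that lies next to the branch-point adenosine, had 36.6 and 31.9 TPM. In the kallisto tables, Sf3b6 had 30.2 and 28.0 TPM, below Sf3b3, whose transcript Sf3b3-201 alone had 35.3 and 34.5 TPM there. Sf3b5 was the lowest of all 54 genes, at 3.98 and 4.10 TPM, although its protein is a subunit of the same complex. Of the U2AF genes, U2af2, encoding the subunit that binds the polypyrimidine tract, had 76.8 and 72.8 TPM. U2af1, encoding the subunit that reads the AG at the intron's end, had 54.4 and 55.3 TPM, and its paralog U2af1l4 had 29.7 and 30.1 TPM. The order of the 3 U2AF genes was the same in both libraries and their replicate ranges did not overlap in the RSEM tables. In the kallisto tables, U2af2 had 119.7 and 110.4 TPM and U2af1 had 115.8 and 116.2 TPM, so that their ranges overlapped and their order turned in replicate 2.

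**Figure D1:**
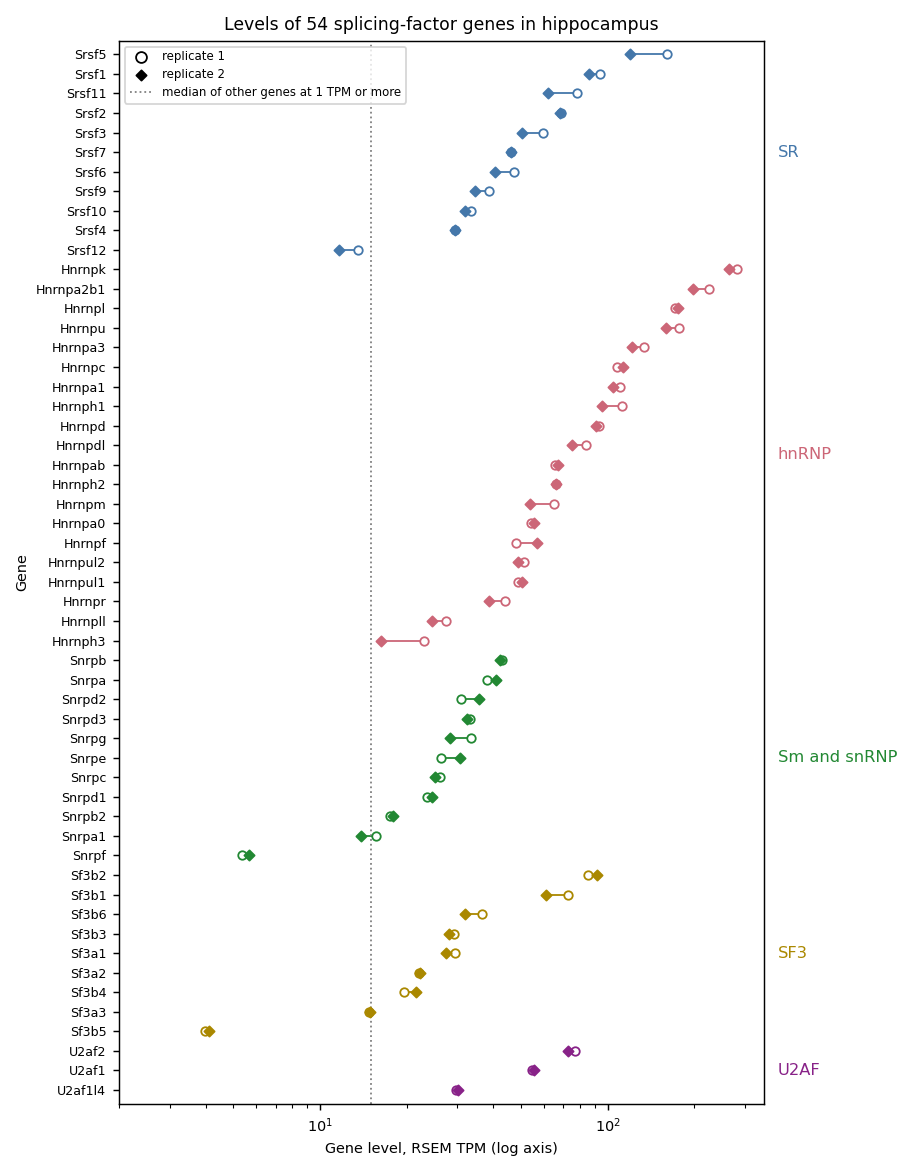
Gene level (RSEM TPM, log axis) of the 54 genes in replicate 1 (open circles) and replicate 2 (filled diamonds), grouped by family, with a dotted line at 15.01 TPM, the median of the other genes at 1 TPM or more. Hnrnpk at 273 TPM and Sf3b5 at 4.04 TPM mark the ends of the range.

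The gene levels depended on the quantification. The deposited kallisto transcript tables, summed per gene, gave a median ratio to the RSEM level of 1.57 over the 54 genes and also of 1.57 over the 12893 other genes. Within that common shift, Snrpd3 was at 0.54 times its RSEM level, Sf3b6 at 0.85, Snrpd1 at 1.04, Sf3a1 at 1.30 and Srsf7 at 1.31. At the other end, Snrpe was at 2.52 times its RSEM level, Hnrnpr at 2.25, U2af1 at 2.11, Srsf11 at 2.08 and U2af1l4 at 2.05. For Snrpd3, the difference sat in 1 short coding transcript, Snrpd3-203 of 442 bases, which had 24.3 and 23.8 TPM in the RSEM tables and was listed at 0 in the kallisto tables. RSEM's posterior SD of the gene count exceeded 1% in 5 genes, led by Snrpf at 6.08% in replicate 1 and 5.57% in replicate 2. The levels of these genes are less certain, and whether they share reads with near-identical copies was not tested. Another gene overlaps 6 of the 54 on the same strand and 19 on the opposite strand, and these overlaps were not resolved further.

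Only part of the RNA of these genes came from protein_coding transcripts. Pooled over the 54 genes, protein_coding transcripts held 67.1% of the TPM in replicate 1 and 72.7% in replicate 2, against 84.2% and 86.3% over the other genes. Retained_intron transcripts held 17.0% and 13.1%, against 8.38% and 6.56%, and nonsense_mediated_decay transcripts held 9.12% and 8.88%, against 2.48% and 2.49% over the other genes. The annotation itself differs: 41 of the 54 genes have a retained_intron transcript annotated (background 58.1%), and 27 of the 54 have a nonsense_mediated_decay transcript annotated (background 28%). Of the members' 191 protein_coding models, 47 have an incomplete coding sequence. These held 11.8% of the members' protein_coding TPM in replicate 1 and 12.5% in replicate 2, and 5 of the leading transcripts have such a sequence. By family, the pooled protein_coding share in replicates 1 and 2 was 49.0% and 55.6% for SR genes, 69.6% and 74.99% for hnRNP genes, 78.4% and 80.8% for Sm and snRNP genes, 75.8% and 80.5% for SF3 genes, and 73.2% and 78.8% for U2AF genes. The SR family was the lowest in both libraries, and no replicate range of another family reached it.

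**Figure D2:**
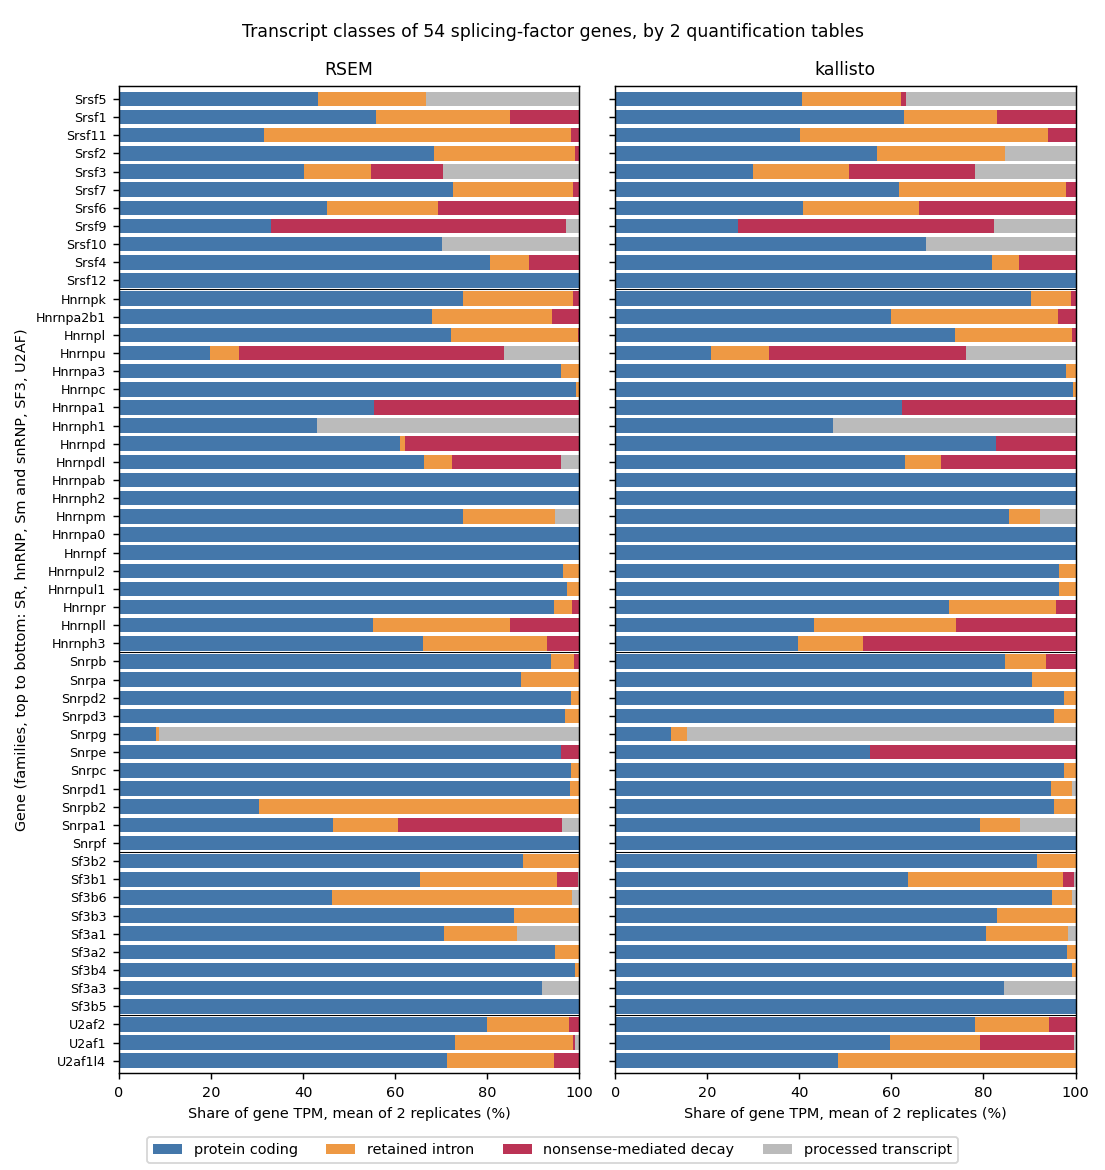
Share of each gene's TPM (%, mean of 2 replicates) in protein_coding, retained_intron, nonsense_mediated_decay and processed_transcript models, from the RSEM tables on the left and the kallisto tables on the right. Srsf11, Srsf9 and Hnrnpu have most of their TPM outside protein_coding models in both panels, whereas Snrpb2 and Sf3b6 do so in the RSEM panel alone.

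Among the 41 genes with a retained_intron transcript, the median retained_intron share of gene TPM was 14.2%, against 11.0% in 7486 other genes. In total RNA, reads in an intron can come from a retained intron or from RNA not yet spliced, and these cannot be told apart here. A share of 10% or more was found in 24 of the 41, near the background of 53.1%. The order of the 2 medians turned in the kallisto tables, at 8.995% for the members and 11.6% for the others, so it is not a property of the members that both quantifications show. Members also have more such transcripts annotated. Among genes with 1 annotated retained_intron transcript, the median share was 3.17% in 13 members and 4.91% in 2832 other genes. With 2 to 3, it was 14.95% in 16 members and 12.5% in 3004 others, and with 4 or more it was 23.5% in 12 members and 25.1% in 1650 others. By family, the median retained_intron share in the RSEM tables was 25.0% in 8 SR genes, 23.1% in 3 U2AF genes, 14.1% in 7 SF3 genes, 6.35% in 14 hnRNP genes and 3.17% in 9 Sm and snRNP genes. In that order, these genes have 26, 20, 21, 49 and 14 such transcripts annotated, and the family medians were not matched for that number.

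The highest retained_intron share was that of Snrpb2, which encodes a protein of the U2 snRNP, at 72.8% in replicate 1 and 66.5% in replicate 2. It rested on Snrpb2-203, a model of 594 bases with 140 intronic bases, at 10.8 and 10.7 TPM. In the kallisto tables that model was listed at 0, and Snrpb2-202, a protein_coding model of 636 bases with an incomplete coding sequence, took 26.4 and 24.9 TPM. Sf3b6 showed the same exchange. Its retained_intron share was 53.5% and 50.7% in the RSEM tables, from Sf3b6-202 (455 bases, 63 of them intronic) at 18.4 and 15.5 TPM, and the kallisto mean share was 4.34%, with Sf3b6-202 listed at 0. For these 2 genes the share is therefore set by the choice of quantification.

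Srsf11 kept a high retained_intron share in both tables. It was 69.7% in replicate 1 and 63.7% in replicate 2 in the RSEM tables, and the kallisto mean was 53.9%. Its RNA was spread over several models. Srsf11-208, with 1988 intronic bases in 2415, had 18.1 and 11.2 TPM, while the full coding transcript Srsf11-202 of 476 codons had 15.4 and 15.6 TPM. The retained_intron model led in replicate 1 and the coding transcript in replicate 2. Srsf2 had 31.8% and 29.2%, all from Srsf2-203, which holds 2 whole introns of a coding transcript, and the kallisto mean was 27.9%. Hnrnpll, a paralog of Hnrnpl, had 34.1% and 25.2%, with a kallisto mean of 30.7%.

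Sf3b1 had 32.9% of its TPM in retained_intron transcripts in replicate 1 and 26.5% in replicate 2, and 33.7% in the kallisto mean. Most of it came from Sf3b1-203, at 16.4 and 14.0 TPM, or 22.6% and 22.9% of the gene. This transcript keeps the whole of intron 4 of the 24 introns of Sf3b1-201, which spans chr1:55014563-55016375 (mm10, minus strand, 1813 bases). Its ends are shown because, of the models of SF3 genes that hold a whole intron, this one had the largest share in both tables. The first and last intronic bases, GT and AG, are in capitals, with 10 exonic bases on the outer side.
Sf3b1 intron 4, 5′ end: tttgcagatgGTaattctttcccacttttc
Sf3b1 intron 4, 3′ end: gttgctgttcttttctgcAGgagggaagac

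Across the 41 genes, the 130 retained_intron models were mostly partial. Of these, 48 hold at least 1 whole intron of a coding transcript of the same gene and 82 hold none, and 127 have intronic bases, with a median of 346 bases or 45.4% of the model. The whole introns held by these models are 48 distinct ones with a median length of 384.5 bases, and 47 of them start with GT and end with AG. The models are short, with a median length of 777.5 bases, against 1537 bases for protein_coding and 855 bases for nonsense_mediated_decay models of the same genes. A given number of reads gives a higher TPM on a shorter model: by expected counts, the pooled retained_intron share was 11.9% in replicate 1 and 9.14% in replicate 2, against 17.0% and 13.1% by TPM.

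Among the 27 genes with a nonsense_mediated_decay transcript, the median share of gene TPM in that class was 5.54%, against 4.59% in 3604 other genes, and 11 of the 27 had 10% or more (background 34.4%). The order turned in the kallisto tables, at 6.31% for the members and 7.60% for the others, and also in RSEM's posterior mean TPM, at 6.42% and 7.2005%. Such a transcript was annotated in all 3 U2AF genes, 9 of 11 SR genes, 10 of 20 hnRNP genes, 4 of 11 Sm and snRNP genes and 1 of 9 SF3 genes.

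Srsf9 had the highest share in this class, 59.8% in replicate 1 and 68.2% in replicate 2, all from Srsf9-205. This transcript had 23.1 and 23.6 TPM, with RSEM credibility intervals of 18.7 to 23.97 and 19.8 to 24.1 TPM, against 13.2 and 11.0 TPM for the coding transcript Srsf9-201. In the kallisto tables it had 33.3 and 34.6 TPM and was again the leading transcript, although its coding sequence is annotated as incomplete. Hnrnpu, encoding the nuclear scaffold protein SAF-A, had 54.6% and 60.4%. Its leading transcript was Hnrnpu-206 at 82.1 and 79.1 TPM, against 34.3 and 31.8 TPM for the coding transcript Hnrnpu-201, which is 7640 bases long where Hnrnpu-206 has 2844. The TPM intervals of these 2 Hnrnpu transcripts did not overlap in either library. By expected counts their order turned, at 4694 and 5315 for Hnrnpu-206 and 5388 and 5867 for Hnrnpu-201. Hnrnpu-206 is annotated with 793 codons, against 800 in Hnrnpu-201.

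Hnrnpa1, whose protein binds splicing silencers, had 49.4% of its TPM in nonsense_mediated_decay transcripts in replicate 1 and 39.6% in replicate 2. Hnrnpa1-203 had 38.5 and 31.2 TPM and Hnrnpa1-204 had 15.7 and 10.1 TPM, against 55.6 and 62.8 TPM for the coding transcript Hnrnpa1-202. Both of the first 2 use the stop codon of a coding transcript and differ downstream of it, where a further exon junction follows. Hnrnpd, whose protein binds AU-rich elements, had 37.9% and 37.7%, with a kallisto mean of 17.2%. Srsf6 had 28.7% and 32.9%, from Srsf6-201, with a kallisto mean of 34.1%. Snrpa1, encoding the A′ protein of the U2 snRNP, had 33.4% and 37.9% from Snrpa1-201 in the RSEM tables, and that transcript was listed at 0 in the kallisto tables.

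**Figure D3:**
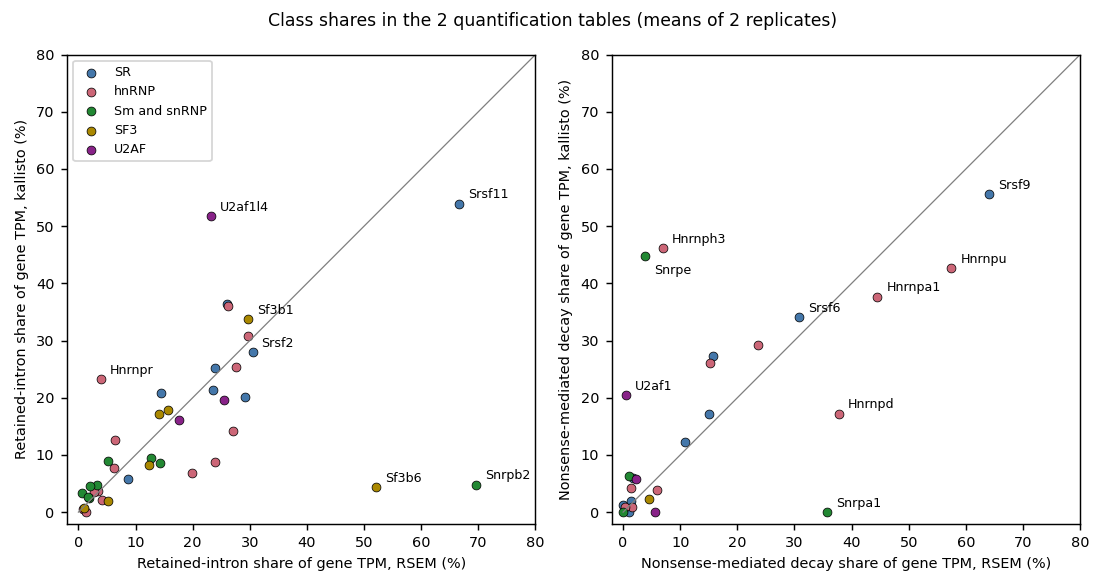
Retained_intron share (left) and nonsense_mediated_decay share (right) of gene TPM (%, means of 2 replicates) in the RSEM tables on the x axis and the kallisto tables on the y axis, 1 point per gene, with the line of equal shares. Srsf11, Srsf9, Hnrnpu, Hnrnpa1 and Srsf6 are high on both axes, and Snrpb2, Sf3b6 and Snrpa1 lie near 0 on the kallisto axis.

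The 52 nonsense_mediated_decay models were read against the annotation. In all 52, the stop codon lies at least 50 bases upstream of the last exon junction, the distance at which NMD is known to act. The median was 291 and the range 52 to 1801 bases. The class label itself rests on such a stop, so this describes the annotation, and whether the transcripts decay was not tested. In 15 models of 11 genes, the stop codon lies in an exon that no coding transcript of the gene has, as in a poison exon. These 15 held 15.4% of the members' nonsense_mediated_decay TPM in replicate 1 and 14.7% in replicate 2. In 13 models of 8 genes, the stop codon is that of a coding transcript, and these held 40.2% and 37.8%. The other 24 models of 11 genes held 44.4% and 47.6%.

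The poison exons of 9 genes are shown because the premature stop that defines the class can be read in them. Each sequence runs from the first base of the exon to its in-frame stop codon, which is in capitals (mm10, transcript strand, from the reference transcripts).
Srsf3-201 (chr17:29039454-29039487): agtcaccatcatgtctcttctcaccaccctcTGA
Srsf4-203 (chr4:131884276-131884390): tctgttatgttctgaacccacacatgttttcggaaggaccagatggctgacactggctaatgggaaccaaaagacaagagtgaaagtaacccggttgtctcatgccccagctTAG
Srsf7-203 (chr17:80205054-80205081): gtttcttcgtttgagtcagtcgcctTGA
Srsf9-205 (chr5:115328347-115328428): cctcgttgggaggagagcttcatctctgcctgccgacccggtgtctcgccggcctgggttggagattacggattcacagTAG
Srsf11-206 (chr3:158024209-158024231): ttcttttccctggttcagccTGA
Srsf11-212 (chr3:158023310-158023359): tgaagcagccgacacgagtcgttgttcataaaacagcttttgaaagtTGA
Hnrnpl-213 (chr7:28817335-28817393): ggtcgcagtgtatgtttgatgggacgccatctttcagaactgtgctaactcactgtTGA
Hnrnpll-203 (chr17:80044976-80045022): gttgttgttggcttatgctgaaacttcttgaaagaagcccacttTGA
Snrpb-203 (chr2:130176695-130176752): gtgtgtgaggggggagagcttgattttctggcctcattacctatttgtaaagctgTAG
Sf3b1-208 (chr1:55014905-55014924): gcttctattctgctgctTGA

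The transcripts that carry these exons differed widely in level. Beside Srsf9-205, the highest was Srsf3-201, whose poison exon is 456 bases long and reaches its stop after 10 whole codons. It had 10.6 TPM in replicate 1 and 6.88 TPM in replicate 2, or 17.7% and 13.7% of the gene, and 25.8% and 28.8% by kallisto. Hnrnpll-203 had 5.64 and 2.37 TPM, or 20.7% and 9.68% of the gene, and its credibility intervals, 3.56 to 7.07 TPM in replicate 1 and 1.21 to 3.54 TPM in replicate 2, did not overlap. Sf3b1-208 had 2.88 and 3.02 TPM, and its 56-base exon lies inside the intron 4 that Sf3b1-203 keeps. The same arrangement was found for 3 of 12 distinct poison exons: those of Sf3b1, Srsf3 and Srsf7 lie inside an intron that a retained_intron transcript of the gene keeps whole. The other shown transcripts, from Srsf4, Srsf7, Srsf11, Hnrnpl and Snrpb, were below 1 TPM in both libraries in the RSEM tables. In the kallisto tables, Srsf11-206 had 10.9 and 6.54 TPM, Snrpb-203 had 5.59 and 3.25 TPM, Srsf4-203 had 3.70 and 2.77 TPM, and Srsf7-203 had 1.38 and 1.02 TPM. Hnrnpl-213 had 4.39 TPM in replicate 2 there, and Srsf11-212 was listed at 0, so these levels depended on the quantification.

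For U2af1, the tables were furthest apart on a poison exon. U2af1-209, whose 40-base exon reaches a stop after 1 whole codon, was listed at 0 in both RSEM libraries and had 19.4 and 28.1 TPM in the kallisto tables. Snrpe and Hnrnph3 likewise had a nonsense_mediated_decay share of 3.90% and 7.02% in the RSEM mean and of 44.7% and 46.2% in the kallisto mean. For these genes, the class is unresolved by the deposited estimates.

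The leading transcript, the one with the highest mean TPM, was not protein_coding in 6 of the 54 genes (background 6.91%). They were Srsf9 and Hnrnpu with a nonsense_mediated_decay transcript, Snrpb2 and Sf3b6 with a retained_intron transcript, and Srsf5 and Snrpg with a processed_transcript, the class of non-coding models with no further label. Srsf5-206 had 46.1 and 33.9 TPM, against 33.0 and 26.9 TPM for the leading coding transcript Srsf5-205. In Snrpg, protein_coding transcripts held a mean share of 7.96% of the TPM, and Snrpg-204, of 375 bases, had 23.6 and 17.0 TPM. Those levels came from 136 and 115 expected counts. In the kallisto tables Snrpg-204 was listed at 0, and another processed_transcript led. The leading transcript was the same in the 2 replicates for 49 genes, and differed for Srsf1, Srsf7, Srsf11, Sf3b6 and Hnrnpdl. It was the same in the RSEM and kallisto tables for 36 genes. Its class was the same for 50, the exceptions being Sf3b6, Srsf5, Snrpb2 and Hnrnph3.

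The other 14 genes whose leading transcript differed between the tables were Srsf7, Snrpa, Snrpc, Snrpd3, Snrpg, U2af1l4, Hnrnpa2b1, Hnrnpa3, Hnrnpd, Hnrnpf, Hnrnph1, Hnrnpk, Hnrnpl and Hnrnpul1. In Hnrnpl, for example, Hnrnpl-202 of 456 codons had 72.6 and 81.1 TPM in the RSEM tables and was listed at 0 in the kallisto tables, where Hnrnpl-201 had 93.3 and 96.7 TPM. In Hnrnpa2b1, the 341-codon transcripts, the length of the A2 protein, held 35.8% and 31.5% of the RSEM gene level and 8.31% and 3.65% of the kallisto level. The 353-codon transcript, the length of the B1 protein, held 10.2% and 10.9% by RSEM, and 36.0% and 34.1% by kallisto. The ratio of the A2 to the B1 form therefore cannot be read from these estimates.

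Other coding isoforms had near-equal shares in the 2 tables, and the following were chosen after their values were seen. In Hnrnpab, the 332-codon transcript held 49.1% and 51.4% of the gene in replicates 1 and 2, and 50.6% and 51.9% by kallisto, and the 285-codon transcript held 46.3% and 44.9%, and 42.9% and 42.5% by kallisto. Srsf10, known as a repressor when dephosphorylated, had 34.0% and 33.2% in its 262-codon transcript and 22.8% and 20.9% in its 183-codon transcript. By kallisto these were 30.0% and 30.2%, and 17.2% and 17.1%. In both genes the order of these forms was the same in every library and table.

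The difference between the replicates was compared on expected counts scaled by TMM factors, for features with a mean of at least 100 counts, as the log2 ratio of replicate 2 over replicate 1. At the gene level, none of 53 members differed by over 2-fold, where 0.645% of all 12714 genes tested were over 2-fold lower and 0.134% over 2-fold higher in replicate 2. None passed 1.5-fold either (background 1.9% lower and 0.409% higher). The median log2 ratio was -0.01 over the members and 0.04 over the other genes. The lowest were Srsf5 at -0.39, Srsf11 at -0.34, Hnrnpr at -0.25, Srsf6 at -0.22 and Hnrnpm at -0.22, of which 3 are SR genes. The highest were Snrpd2 at 0.26, Snrpe at 0.24, Sf3b4 at 0.21, Snrpb2 at 0.16 and Sf3b2 at 0.13. The family medians were -0.10 for SR genes, -0.03 for hnRNP genes, -0.0029 for U2AF genes, 0.03 for SF3 genes and 0.09 for Sm and snRNP genes.

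The retained_intron transcripts differed more. Their share of gene TPM was lower in replicate 2 in 35 of 41 members, near the background of 79.2% over 7396 genes. The median difference in share was -2.76 percentage points over the members and -2.55 over the others. In counts summed per gene, the median log2 ratio was -0.46 over 23 members and -0.47 over 2406 other genes. It was below 0 in 22 of the 23 members, Sf3b2 at 0.01 being the exception, and in 86.9% of all 2429 genes tested. The lowest were Sf3a1 at -0.96, Hnrnpm at -0.78 and Hnrnpl at -0.59, and after Sf3b2 the highest were Srsf2 at -0.09 and Snrpb2 at -0.17. Over 1.5-fold lower were 3 of 23 members, below the background of 36.7%, and none was over 1.5-fold higher (background 0.618%) or passed 2-fold in either direction (background 5.85% lower and 0.247% higher). Protein_coding counts had a median of 0.06 over 52 members and 0.08 over 11503 others. None of the 52 passed 2-fold (background 0.0779% lower and 0.113% higher) or 1.5-fold (background 0.485% lower and 0.684% higher). The protein_coding share was higher in replicate 2 in 41 of 47 members (background 71.5%). All 7 genes listed as nuclear-retained long non-coding RNAs were also lower in replicate 2, where 39.4% of all 12714 genes tested had a log2 ratio below 0. Their log2 ratios ran from -0.88 for Kcnq1ot1 to -0.19 for Rian, with a median of -0.62. Of the 7, Snhg11 had 83.1% and 81.5% of its TPM in transcripts annotated as protein_coding. The summed level of the 7 was 8385 TPM in replicate 1 and 5356 TPM in replicate 2, and their part in the result was not tested.

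**Figure D4:**
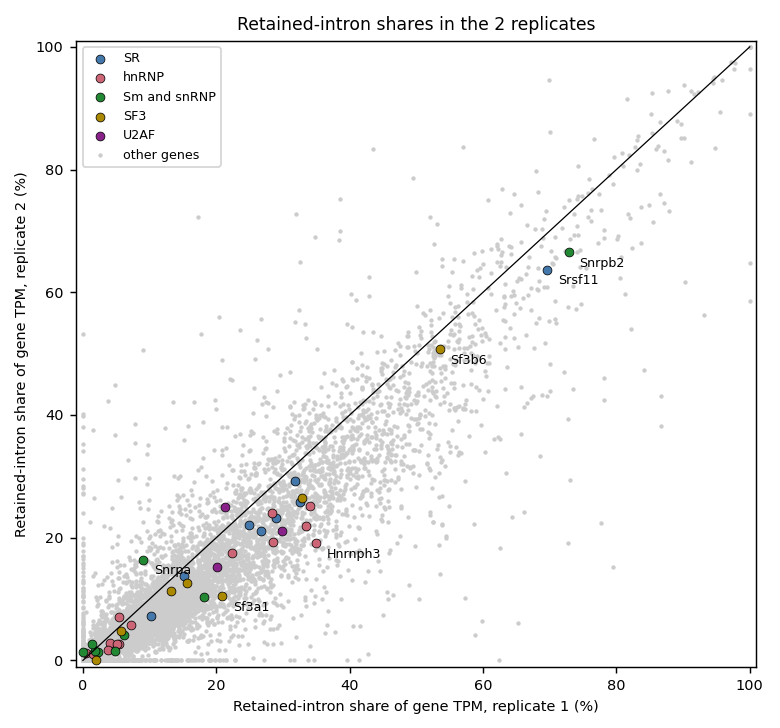
Retained_intron share of gene TPM (%) in replicate 1 (x axis) and replicate 2 (y axis) for the 41 members with such a transcript, coloured by family, over 7486 other genes in grey, with the line of equal shares. Of the 41 members, 35 lie below the line, as do most other genes.

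The nonsense_mediated_decay transcripts had a smaller median difference. Their share was lower in replicate 2 in 13 of 25 members with a value above 0 (background 51%). In summed counts, the median log2 ratio was -0.07 over 11 members and -0.02 over 807 others. The ratio was below 0 in 8 of the 11 members and in 52.6% of all 818 genes tested. Over 2-fold lower in replicate 2 was 1 of the 11, Hnrnpll at -1.21, against a background of 4.89%, and none was over 2-fold higher (background 3.18%). At 1.5-fold, Hnrnpll was again the 1 member lower (background 13.6%), and none was higher (background 8.68%). In the kallisto tables the ratio for Hnrnpll was -0.39, which does not pass 2-fold. After Hnrnpll, the lowest were Srsf3 at -0.57 and Hnrnpa1 at -0.42, and the highest were Srsf9 at 0.07, Snrpa1 at 0.05 and Srsf6 at 0.01.

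**Figure D5:**
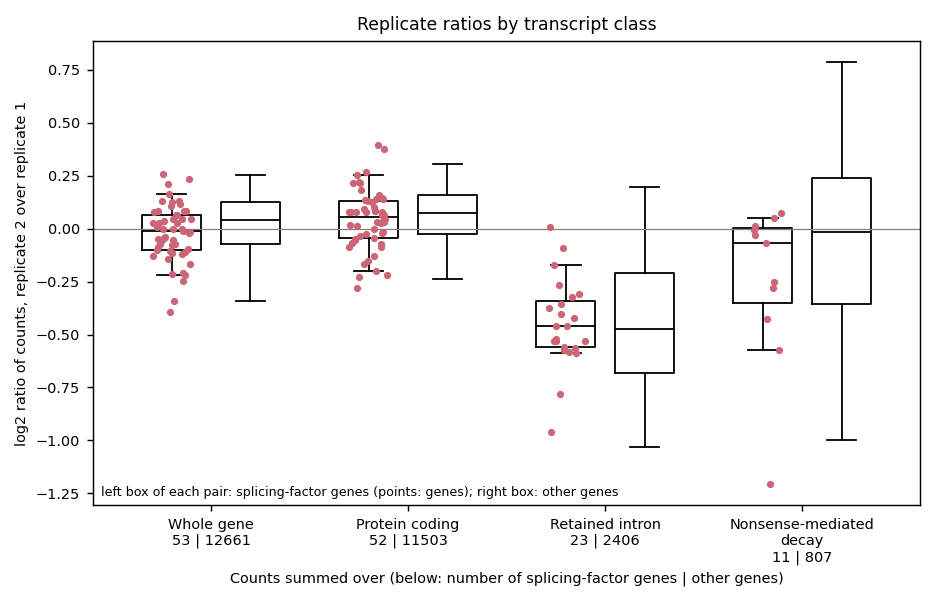
log2 ratio of counts, replicate 2 over replicate 1, summed over the whole gene or over 1 transcript class, for features with a mean of at least 100 counts. In each pair the left box holds the 54 genes' tested features (points are genes) and the right box the other genes (boxes show quartiles, whiskers the central 90% of values), with medians of -0.46 and -0.47 for retained_intron transcripts.

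Other splicing genes in 3 lists by function were detected in full. All 16 proteins of the snRNPs outside the symbol rule were at 1 TPM or more, from Prpf4 at 4.77 TPM to Snrpn, the neuronal SmN gene, at 377 TPM, which is above every one of the 54 genes. The 7 LSm genes ran from Lsm5 at 7.64 TPM to Lsm4 at 28.0 TPM, and the 10 genes of the Prp19 complex and late factors from Crnkl1 at 8.46 TPM to Prpf19 at 89.4 TPM. The 3 list medians, 23.6, 18.3 and 20.7 TPM in that order, were below the 45.0 TPM of the 54 genes.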

How the data were processed

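Total RNA-seq tables of 2 libraries of 1 group were used. The deposited gene and transcript tables, whose columns per the file headers are those RSEM writes, give expected counts, TPM, posterior mean TPM, the posterior SD of the count and the bounds of a credibility interval. That SD and those bounds are deposited as further scores of each estimate. The deposited kallisto tables give estimated counts and TPM per transcript. Per the authors' file notes, all were made on mm10 with the GENCODE M21 annotation, and replicates were not pooled. For program versions and strand settings, the sources used here give nothing.

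Shares are a class's summed TPM over the gene's. Ratios used expected counts rounded to whole numbers, with 0.5 added, scaled by TMM factors (edgeR 4.0.16) and kept at a mean of at least 100 counts. DESeq2 1.42.0 size factors, the kallisto tables, other minimums and spike-in scaling were alternatives. The ratio step was tested on simulated gene counts, which held no transcript classes, so that test has no bearing on the class ratios. No test between groups was possible with 1 group. Coordinates and sequences come from the reference of the same build and annotation, whose transcript IDs and lengths matched the files. The members, gene lists and the rule for named genes (per family the 3 highest and the lowest, the 6 highest shares, the extreme ratios, and changed leading transcripts) were chosen with earlier results of these data known. A further list is not reported here.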

Additional observations from a re-analysis of the deposited data

How the results depend on the processing

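No paired analysis was possible because the study holds 1 group. No call of direction between groups was made, and the limits are those of 2 libraries and of dividing reads among overlapping models. All 54 genes were found at 1 TPM with every alternative, and 52 or 53 at 10 TPM.

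The kallisto tables moved the median level to 72.2 TPM (SR 65.9, hnRNP 110.7, Sm and snRNP 39.1, SF3 33.3 and U2AF 115.0 TPM), with other genes at 23.96 TPM. Rescaling to nuclear protein-coding genes gave 101.6 TPM (SR 104.1, hnRNP 164.7, Sm and snRNP 64.2, SF3 64.3 and U2AF 123.8 TPM). Leaving out 1 replicate gave SR medians of 46.0 to 47.3 TPM and Sm and snRNP medians of 26.4 to 28.2 TPM.

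The median retained_intron share was 8.995% with kallisto and 9.16% by expected counts (others 11.6% and 5.62%). The median nonsense_mediated_decay share was 6.31% with kallisto, 6.42% by posterior mean TPM (others 7.60% and 7.2005%), and 4.44% to 4.94% with 1 replicate left out. The retained_intron share was lower in replicate 2 in 30 to 35 members with each alternative.

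The median gene log2 ratio was -0.22 when scaled to spike-ins and reversed to 0.048 with kallisto. The protein_coding median reversed to -0.15 with spike-ins, where other genes were at -0.13. The nonsense_mediated_decay median was -0.28 with spike-ins, -0.19 with no minimum count, and reversed to 0.033 with kallisto. The retained_intron median stayed between -0.67 and -0.30. Members past 2-fold in retained_intron counts numbered 1 with spike-ins (15.2% of all genes tested), 1 with kallisto (4.14%), 5 of 37 at a minimum count of 10 (16.5%) and 7 of 41 with none (23.7%), and 3 of 23 passed 1.5-fold (37.3%). In nonsense_mediated_decay counts they numbered 0 with kallisto (8.41% of all genes tested), 0 of 5 at a minimum count of 500 (2.59%), 5 of 23 at 10 (27.3%) and 7 of 27 with none (31.2%). Ranked by expected counts, 3 of the 54 leading transcripts were not protein_coding, beside 4.43% in other genes. The causes were not tested. For single genes, 671 of the alternative values moved by less than the spread between replicates and 441 did not. Leaving out 1 replicate can never move a mean by more than that spread, so those values could not show a dependence. Of the gene levels, all 54 moved by more with the kallisto tables, and all 54 with rescaling to nuclear protein-coding genes. Both settings change the scale of all genes: the median of the other genes went from 15.01 TPM to 23.96 and 33.9 TPM. These moves are part of the 441 and do not by themselves show a dependence particular to single genes.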

Other observations

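All 8 genes of the list of SR kinases and Tra2 factors, from Clk2 at 19.9 TPM to Srpk2 at 64.7 TPM, have a retained_intron transcript annotated (background 58.1%). The median share was 39.4%, beside 14.2% over the 41 members with such a transcript. The annotation of these 8 genes ran from 2 such transcripts in Tra2a to 7 in Clk1 and Clk4. Among genes with 4 or more, the median share was 23.5% in members and 25.1% in others, so 14.2% is not a like comparison. Clk4, a kinase that phosphorylates SR proteins, had 62.6% in replicate 1 and 64.3% in replicate 2, and 57.5% and 58.6% in the kallisto tables. Clk1, a paralog, had 46.8% and 47.8%, and 50.3% and 50.02% by kallisto. Neither share was lower in replicate 2 by RSEM, unlike most members. At the gene level 7 of the 8 had a log2 ratio below 0, with a median of -0.22, beside 39.4% of all 12714 genes tested and a median of 0.04. Srpk2, which also phosphorylates SR proteins, had 3.999% and 3.08% in retained_intron transcripts but 48.5% and 46.1% in nonsense_mediated_decay transcripts.

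Among the snRNP genes outside the symbol rule, Snrnp70, encoding the RNA-binding protein of the U1 snRNP, had 63.1% and 57.6% of its TPM in retained_intron transcripts, and 44.0% and 40.4% by kallisto. The list's median was 17.8% over 11 genes. LSm genes had a median of 9.67% over 7 genes, and Prp19 complex and late factors 7.42% over 9. These genes were picked for mention after their values were seen, and no comparison between the lists was tested.

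Markers of other cell types of the tissue were present: all 3 interneuron, 3 astrocyte, 3 oligodendrocyte, 3 microglia and 2 endothelial markers reached 1 TPM, from Pecam1 at 7.14 TPM to Mbp at 950 TPM. The share of the 54 genes' RNA that came from each cell type was not tested.

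Of the members' transcripts at 1 TPM or more, 6 of 269 in replicate 1 and 5 of 247 in replicate 2 had an RSEM level outside their own deposited credibility interval. They belong to U2af1l4, Hnrnpf, Hnrnph1, Hnrnpul2, Sf3b1 and Sf3b2. For U2af1l4, the RSEM level of its leading transcript in replicate 1, 16.1 TPM, lay outside the interval of 0.0037 to 13.3 TPM.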
